A study of Mus musculus with 12 samples.

Results

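The Obox, Oogenesin and oocyte-secreted protein genes are families that mouse oocytes transcribe while they grow. The members described here are 10 of the 24562 genes in the deposited table, chosen by symbol: the homeobox genes Obox1, Obox2 and Obox5, the Oogenesin genes Oog1, Oog2, Oog3 and Oog4, and the secreted protein genes Oosp1, Oosp2 and Oosp3. Their transcripts were measured by RNA-Seq of oocytes from CD-1 female mice, an outbred strain, in 4 cohorts with 3 pools each, 12 pools in all. The cohorts were postnatal day (PND) 13, PND 16 small (lighter mice of that age), PND 16 large (heavier mice of that age) and PND 40. The study treats PND 13 and PND 16 small as meiotically non-competent and PND 16 large and PND 40 as meiotically competent. The mice of all cohorts were not stimulated with gonadotropins, all oocytes were held in prophase I with milrinone, and the cumulus cells around them had been removed by pipetting. A pool held 18 to 45 oocytes, so a difference between pools cannot be told apart from a difference in their mix of oocytes.

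As background, Obox genes encode homeodomain proteins, which bind DNA, and maternal OBOX proteins take part in the activation of the embryo's genome after fertilization. Oogenesins belong to the large PRAME family of leucine-rich repeat proteins, whose genes lie in clusters of recent duplicates. OOSP proteins carry a secretion signal and a domain related to those of the zona pellucida proteins and of placental PLAC1. A growing oocyte stores transcripts such as these for use in maturation and early cleavage, when its own transcription is silent.

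The total count per pool ran from 17671193 to 27418358, and the 10 members together took between 0.299 and 0.425% of it. Levels are given as CPM, counts relative to the size of the library, scaled between libraries with the TMM factors of edgeR (trimmed mean of M values). Differences come from edgeR's quasi-likelihood test on all 13943 genes that passed a filter on low counts, with Benjamini-Hochberg adjustment over those genes. A gene is said to pass the test at an adjusted p of at most 0.05, and to meet both criteria when it also differed by at least 1.5-fold. The 10 oocyte markers, among them Gdf9, Bmp15 and Zp3, were present in every pool, with a summed level of 14079 to 18724 CPM. The 14 granulosa and cumulus markers, none of them at 0 in any pool, summed to 533.9, 132.4 and 620.5 CPM at PND 13 and to 189.0, 570.9 and 261.9 CPM in PND 16 small. In PND 16 large they summed to between 197.4 and 213.7 CPM, and at PND 40 to between 161.3 and 181.0 CPM. A single marker, Nr5a2, made 88.2 to 97.7 CPM of the sum in the competent pools and 87.9 to 145.9 CPM in the non-competent pools. The 8 theca and stroma markers summed to between 8.2 and 50.6 CPM. In pools of cells, fewer cells of a type and less RNA per cell cannot be told apart.

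How much of each member is unique decides which counts can be read as one gene. Each member's annotated transcripts were therefore read in windows of 50 bases, the length of a read, and compared with the transcripts of all other genes in GENCODE M21 (GRCm38). Of the windows of Obox1, 57.4% also occurred in another gene, and for Obox2 the share was 65.1%. Nearly all of that came from each other, as 1033 windows were common to both. Obox5 shared 18.1% of its windows, mostly with Obox7. Oog1 shared 89.0%, Oog2 33.4%, Oog3 19.7% and Oog4 0.707%. Oosp1, Oosp2 and Oosp3 shared none. By this measure the values of the OOSP genes and of Oog4 can be read as single genes, while those of Obox1 and Obox2 depend on how reads that match both were counted, which is not given in the sources used here. The values of Oog2 depend on it in part, as 30.1% of its windows also occur in Gm13084. The windows were read on the strand of the transcript only. On the opposite strand, 57 of the 823 exon bases of Oosp3 overlap the pseudogene Gm19224, and the strand setting of the counts is not given either.

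**Figure D1:**
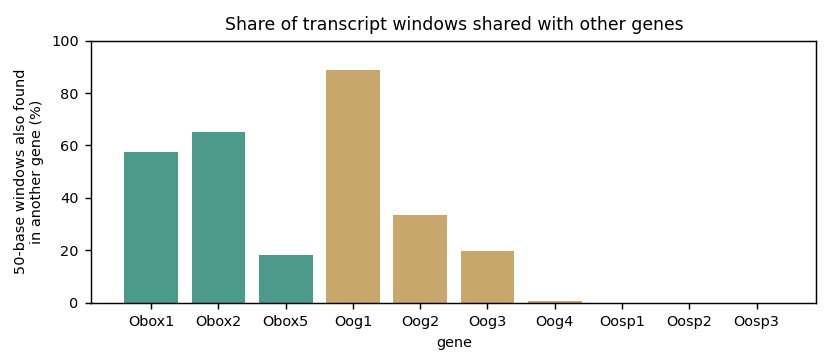
Bars give, for each of the 10 genes on the x axis, the percentage of the 50-base windows of its annotated transcripts that also occur in a transcript of another gene. Oog1 stands highest at 89.0%, Obox1 and Obox2 lie at 57.4 and 65.1%, and the 3 Oosp genes are at 0.

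A stretch of 90 coding bases shows how near the Obox genes are. It was chosen as the stretch where Obox1 and Obox2 differ most, and it starts at base 170 of each coding sequence. All 4 sequences come from GENCODE M21 transcripts, and capitals mark bases that differ from Obox1.
Obox1: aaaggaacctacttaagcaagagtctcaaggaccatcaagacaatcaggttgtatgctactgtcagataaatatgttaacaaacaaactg
Obox2: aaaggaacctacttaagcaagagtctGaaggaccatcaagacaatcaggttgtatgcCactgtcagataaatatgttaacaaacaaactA
Obox5: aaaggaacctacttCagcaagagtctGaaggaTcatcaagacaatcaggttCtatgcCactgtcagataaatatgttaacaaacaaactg
Obox7: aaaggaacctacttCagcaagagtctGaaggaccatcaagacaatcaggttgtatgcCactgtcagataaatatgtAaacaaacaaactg

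Over this stretch Obox2 differs from Obox1 at 3 bases, Obox5 at 5 and Obox7 at 4. Over the whole coding sequence, Obox1 and Obox2 are 98.5% identical across the 453 bases that align without a gap, with 7 substitutions. Obox1 and Obox5 are 95.6% identical over 612 such bases. The 3 genes lie on chromosome 7 (GRCm38), all on the plus strand: Obox2 at chr7:15388721-15398545, Obox1 at chr7:15388948-15556866 and Obox5 at chr7:15750131-15759800. The annotated extents of Obox1 and Obox2 overlap, and their exons share 59 bases. In the 250 bases before the RefSeq start sites, the 3 genes have a run of 42 bases in common, and Obox1 and Obox2 share a run of 153 bases. The annotated starts of Obox1 and Obox2 lie close together on the same strand, so their windows can cover the same DNA. These runs are therefore no measure of likeness between separate promoters of Obox1 and Obox2.

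Obox1 and Obox2 stood highest at PND 40, and Obox2 had the largest fitted fold change of the members in PND 40 against each other cohort and in PND 16 large vs. PND 16 small. The Obox1 level was 224, 272 and 202 CPM in the PND 13 pools, 238, 257 and 226 CPM in PND 16 small, 300, 326 and 294 CPM in PND 16 large, and 366, 374 and 328 CPM at PND 40. All 6 competent pools lay above all 6 non-competent pools. Obox1 rose from PND 13 to PND 40 by 0.61 ± 0.0998 (SE) on the log2 scale (1.53-fold, adjusted p = 0.000564). Without PND 13 replicate 3 or PND 40 replicate 2 it no longer met both criteria (0.52 at the lowest). Between PND 16 small and PND 13, the difference was 0.05 ± 0.0997 (adjusted p = 0.841).

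Obox2 gave 157, 245 and 149 CPM at PND 13 and 94.6, 187 and 179 CPM in PND 16 small. In PND 16 large its level was 235, 323 and 292 CPM, and at PND 40 it was 390, 448 and 415 CPM. The PND 40 pools were all above the other 9, and 1 PND 13 pool overlapped the range of PND 16 large. Obox2 was 2.27-fold higher at PND 40 than at PND 13 (log2 fold change 1.18 ± 0.267, adjusted p = 0.00780) and 2.72-fold higher than in PND 16 small (1.44 ± 0.270, adjusted p = 0.00331). The difference between PND 16 large and PND 16 small, 0.89 ± 0.267, did not pass the test (adjusted p = 0.0592), nor did that between PND 40 and PND 16 large, 0.56 ± 0.264 (adjusted p = 0.250). With pools joined by competence, Obox2 was 2.08-fold higher in competent oocytes (1.06 ± 0.206, adjusted p = 0.00216). Summed over Obox1 and Obox2, the level was 416 ± 88.5 CPM at PND 13, 394 ± 56.7 CPM in PND 16 small, 590 ± 57.3 CPM in PND 16 large, then 773 ± 41.9 CPM at PND 40 (SD, n = 3 each). The sum does not depend on how common reads were split between these genes, but it would lack common reads that were set aside.

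By the counts as listed, Obox5 was the most abundant Obox gene, also by mean per length, and was higher in both competent cohorts. Per length its PND 40 pools overlapped those of Obox2 (259 to 315 vs. 237 to 272 CPM per kb). Obox1 and Obox2 share more of their windows (57.4 and 65.1%, against 18.1% for Obox5). The order of the 3 genes thus depends on how common reads were counted. The Obox5 level was 482, 493 and 422 CPM at PND 13, 495, 491 and 443 CPM in PND 16 small, 658, 597 and 594 CPM in PND 16 large, then 673, 652 and 553 CPM at PND 40. The 6 competent pools were again all above the 6 non-competent pools, with no order between PND 16 large and PND 40. It rose 1.32-fold from non-competent to competent oocytes (log2 fold change 0.40 ± 0.0648, adjusted p = 0.000513), short of the 1.5-fold criterion. Between PND 40 and PND 16 large it differed by 0.02 ± 0.0880 (adjusted p = 0.923).

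**Figure D2:**
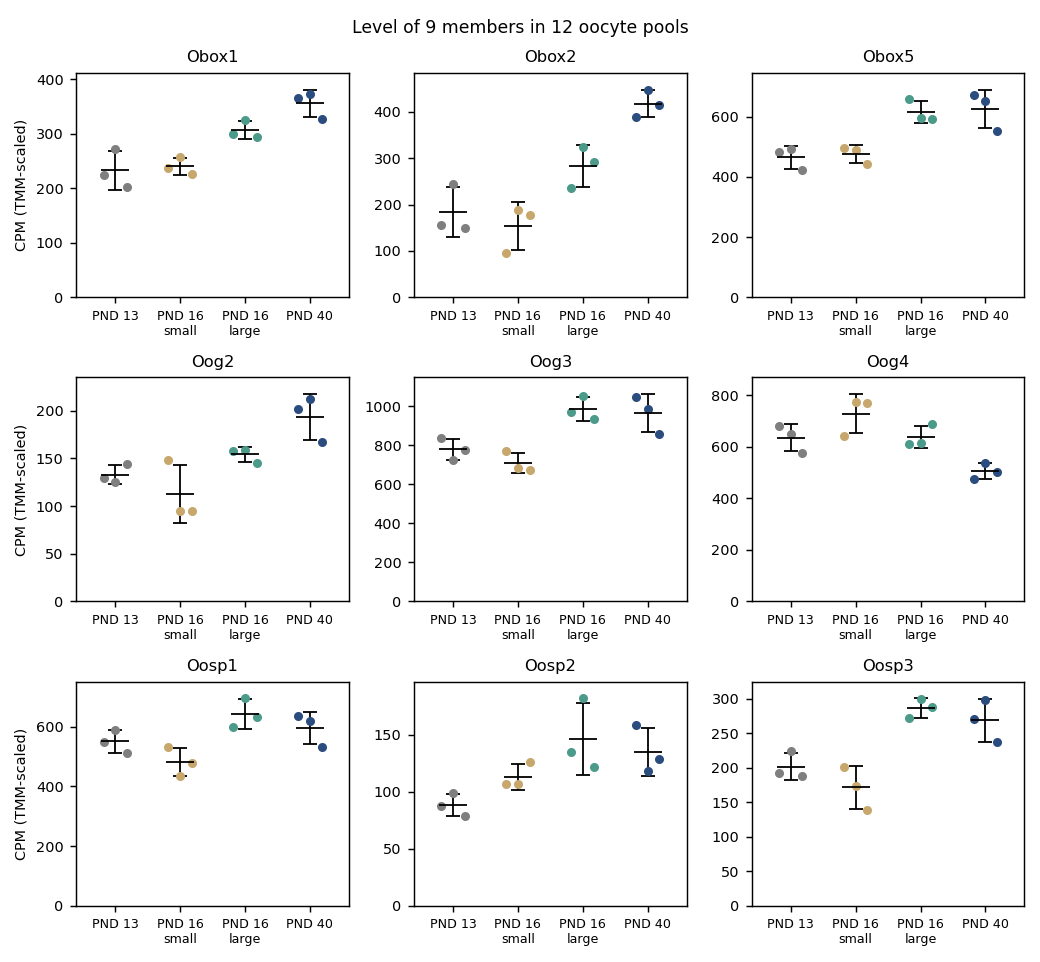
Each panel gives 1 gene, with the TMM-scaled CPM of the 12 pools on the y axis from 0 and the 4 cohorts on the x axis. Points are pools, horizontal bars are cohort means and whiskers are SD (n = 3). Obox2 climbs from 154 CPM in PND 16 small to 418 CPM at PND 40, whereas Oog4 is lowest at PND 40 (506 CPM).

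Among the other Obox genes in the table, Obox7 was low beside the members, at 55.8 ± 9.21 CPM at PND 13, 46.8 ± 11.4 CPM in PND 16 small, 49.5 ± 9.06 CPM in PND 16 large, then 73.6 ± 2.59 CPM at PND 40 (SD, n = 3 each). It met both criteria in the comparison of PND 40 with PND 16 small (log2 fold change 0.65 ± 0.18, adjusted p = 0.0155) and in no other. Obox3 had between 0 and 12 counts in the 9 pools before PND 40 and 20 to 22 counts at PND 40, a difference that did not pass the test in any comparison (adjusted p of 0.149 for PND 40 vs. PND 13). Obox6 had at most 6 counts in a pool and was not tested.

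Oog1 was listed at 0 counts in all 12 pools. At these depths a count of 0 allows a level of up to 0.109 to 0.170 CPM per pool (3 counts, counting error only). If reads that match several genes were set aside, this limit holds only for reads of the windows that Oog1 has alone, and the level of the whole gene could be higher. Oog1 lies at chr12:87602688-87608850 on the plus strand (GRCm38), and of its 2492 windows only 275 were found in no other gene. Of all its windows, 85.8% also occur in Gm2042 and 58.6% in Gm10436, both on chromosome 12, and 17.1% in C87977 and 14.4% in Gm13023, both on chromosome 4. The coding sequences of Oog1 and Gm2042 have 1488 bases each and differ at 1 of them. The stretch of 90 bases that holds this difference follows, with capitals at bases that differ from Oog1. Oog3 and Oog4 are added to show the distance within the family.
Oog1: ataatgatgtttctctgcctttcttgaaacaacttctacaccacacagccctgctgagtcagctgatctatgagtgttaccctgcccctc
Gm2042: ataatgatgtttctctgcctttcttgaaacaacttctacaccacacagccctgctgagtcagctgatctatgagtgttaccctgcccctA
Gm10436: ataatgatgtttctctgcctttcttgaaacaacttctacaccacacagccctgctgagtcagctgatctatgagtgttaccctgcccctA
C87977: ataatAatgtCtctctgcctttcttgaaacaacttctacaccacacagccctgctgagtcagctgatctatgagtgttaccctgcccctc
Gm13023: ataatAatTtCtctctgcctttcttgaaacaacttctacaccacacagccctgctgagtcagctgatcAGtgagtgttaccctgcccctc
Oog3: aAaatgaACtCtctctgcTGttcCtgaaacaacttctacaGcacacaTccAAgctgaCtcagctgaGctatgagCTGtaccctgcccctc
Oog4: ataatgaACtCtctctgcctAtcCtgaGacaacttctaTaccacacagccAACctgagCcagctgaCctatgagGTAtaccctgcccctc

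The 4 genes that share windows with Oog1 all had counts. Gm2042 was at 31.8 ± 1.14 CPM at PND 13, 74.7 ± 18.8 CPM in PND 16 small, 62.2 ± 13.2 CPM in PND 16 large, then 51.4 ± 10.1 CPM at PND 40 (SD, n = 3 each). Its 3 PND 13 pools lay below the other 9, and it met both criteria against PND 13 in PND 16 small (log2 fold change 1.23 ± 0.200, adjusted p = 0.0309), in PND 16 large (0.97 ± 0.199, adjusted p = 0.00455) and at PND 40 (0.69 ± 0.198, adjusted p = 0.0182). Gm10436 showed the opposite order of PND 13 and PND 16 small, 223 ± 25.7 vs. 130 ± 43.4 CPM, a difference that did not pass the test (adjusted p = 0.0785). C87977, at 508 to 624 CPM by cohort mean, passed the test in none of the comparisons. Gm13023, at 636 to 805 CPM, passed it in PND 16 large against each of PND 13, PND 16 small and PND 40, and never reached 1.5-fold. Summed over all 4 genes, the level was 1459 ± 159 CPM at PND 13, 1372 ± 101 CPM in PND 16 small, 1684 ± 34.9 CPM in PND 16 large, then 1411 ± 202 CPM at PND 40. These genes were picked after the counts of Oog1 had been seen. Whether reads of Oog1 were set aside or counted for its near copies was not tested.

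**Figure D3:**
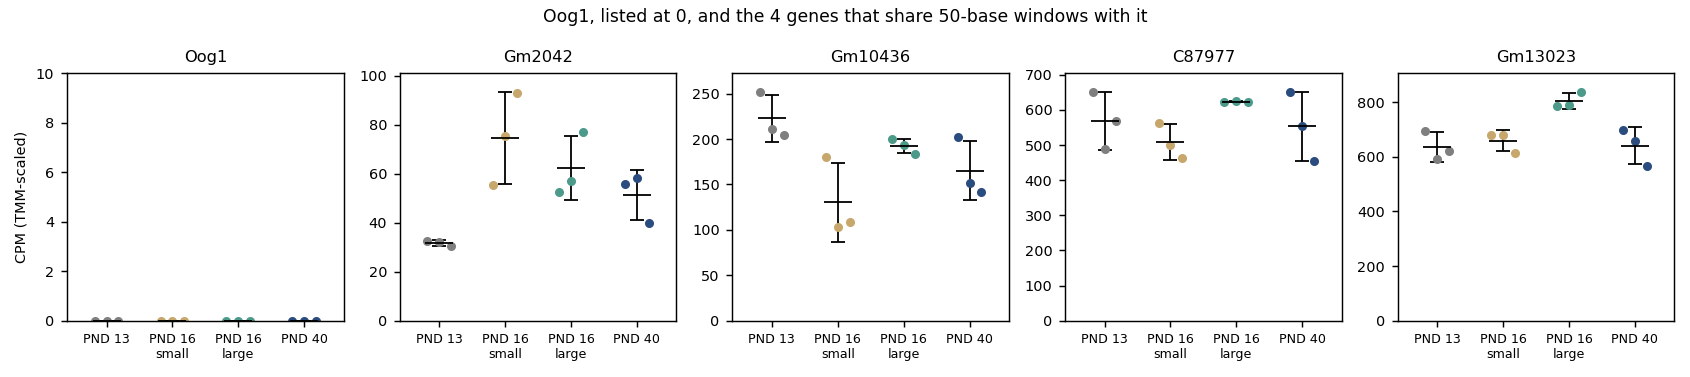
The panels give Oog1 and the 4 genes that share 50-base windows with it, with TMM-scaled CPM on the y axis (a separate scale for each gene, from 0) and the 4 cohorts on the x axis. Points are pools, bars are means and whiskers are SD (n = 3). All 12 pools of Oog1 lie at 0, while Gm2042 is lowest in the 3 PND 13 pools.

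The Oog genes have like sequences ahead of their start sites too. The bases from 100 to 13 before the RefSeq start site (GRCm38.p6) are printed for the 4 members, 5′ to 3′ on the gene's strand. Capitals mark CAGCTG, a form of the E-box to which basic helix-loop-helix factors such as FIGLA and SOHLH1 can bind. They are shown because all 4 genes have these letters near the start, although the genes moved in different directions.
Oog1: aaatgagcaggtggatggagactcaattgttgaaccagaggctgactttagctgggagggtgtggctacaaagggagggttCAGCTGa
Oog2: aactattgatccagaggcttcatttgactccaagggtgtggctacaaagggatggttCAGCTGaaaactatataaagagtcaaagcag
Oog3: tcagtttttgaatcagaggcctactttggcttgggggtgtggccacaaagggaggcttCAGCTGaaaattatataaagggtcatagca
Oog4: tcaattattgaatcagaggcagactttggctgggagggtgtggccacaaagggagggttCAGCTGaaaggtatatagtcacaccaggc

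The stretches lie at chr12:87602565-87602652 (plus strand) for Oog1, chr4:144190617-144190704 (plus) for Oog2, chr4:144162664-144162751 (minus) for Oog3 and chr4:143450337-143450424 (minus) for Oog4. CAGCTG, which reads the same on both strands, starts 19 bases before the start site of Oog1, and 43, 42 and 41 bases before those of Oog2, Oog3 and Oog4. It occurs once in each, once in the 250 bases before Oosp2, and not in those before Obox1, Obox2, Obox5 and Oosp1. Of 32851 promoter windows of 250 bases in RefSeq, 13.0% hold it. A match is a description of letters, and binding was not measured here.

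Oog2 and Oog3 were higher in competent oocytes, and Oog4 was lower at PND 40. Oog2 lies at chr4:144190719-144196934 on the plus strand, Oog3 at chr4:144157557-144162663 and Oog4 at chr4:143437164-143450324, both on the minus strand. The Oog2 level was 130, 125 and 144 CPM at PND 13, 148, 94.8 and 95.03 CPM in PND 16 small, 158, 159 and 146 CPM in PND 16 large, then 202, 213 and 167 CPM at PND 40. The PND 40 pools were all above the other 9, and PND 16 small split into 1 pool within the range of PND 16 large and a pair below all others. Oog2 met both criteria at PND 40 against PND 16 small (log2 fold change 0.78 ± 0.154, 1.72-fold, adjusted p = 0.00262). Against PND 13 it rose by 0.54 ± 0.153 (adjusted p = 0.0170), short of 1.5-fold. Joined by competence its log2 difference was 0.50, while PND 16 large was only 0.21 above PND 13.

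Oog3 had the highest mean CPM of the members in every cohort but PND 16 small, where Oog4 was higher. Oog3 gave 835, 725 and 778 CPM at PND 13, 768, 683 and 674 CPM in PND 16 small, 970, 1050 and 932 CPM in PND 16 large, then 1049, 986 and 858 CPM at PND 40. Competent pools were all above non-competent pools. The difference was 1.31-fold (log2 fold change 0.39 ± 0.0694, adjusted p = 0.000907). PND 16 large was 0.47 ± 0.0876 above PND 16 small (adjusted p = 0.00517), and PND 40 and PND 16 large differed by -0.03 ± 0.0873 (adjusted p = 0.892).

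Oog4 went the other way. Its level was 682, 649 and 578 CPM at PND 13, 641, 774 and 772 CPM in PND 16 small, 613, 616 and 689 CPM in PND 16 large, then 476, 539 and 502 CPM at PND 40. The 3 PND 40 pools lay below the other 9, while the earlier cohorts overlapped. Oog4 passed the test at PND 40 against PND 13 (log2 fold change -0.33 ± 0.0905, adjusted p = 0.0127), PND 16 small (-0.53 ± 0.0907, adjusted p = 0.000917) and PND 16 large (-0.34 ± 0.0905, adjusted p = 0.0410), never by 1.5-fold. It was the only member to pass the test between PND 40 and PND 16 large. Joined by competence, the Oog4 difference of -0.25 ± 0.0974 did not pass (adjusted p = 0.0600). It did pass in some alternatives, among them DESeq2, total counts and the stricter filter. The same held without PND 13 replicate 3 or PND 16 large replicate 3.

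The 3 Oosp genes lie next to each other on chromosome 19: Oosp2 at chr19:11647279-11660559 and Oosp1 at chr19:11667460-11691150, both on the minus strand, and Oosp3 at chr19:11697055-11711874 on the plus strand. Oosp1 was at 548, 590 and 513 CPM at PND 13, 531, 435 and 478 CPM in PND 16 small, 598, 695 and 634 CPM in PND 16 large, then 634, 619 and 533 CPM at PND 40. PND 16 large lay above all 6 non-competent pools and PND 40 overlapped PND 13. It rose by 0.42 ± 0.0933 on the log2 scale from PND 16 small to PND 16 large (adjusted p = 0.0133), while PND 40 and PND 13 differed by 0.11 ± 0.0931 (adjusted p = 0.376).

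Oosp2 was lowest at PND 13, at 87.7, 98.8 and 78.8 CPM, and had 107, 107 and 126 CPM in PND 16 small. PND 16 large gave 135, 182 and 122 CPM, and PND 40 gave 159, 118 and 129 CPM. The 3 PND 13 pools were below the other 9, and the other cohorts overlapped. Oosp2 was 1.65-fold higher in PND 16 large (log2 fold change 0.73 ± 0.153, adjusted p = 0.00503) and 1.53-fold higher at PND 40 (0.61 ± 0.152, adjusted p = 0.00863) than at PND 13. Without the PND 16 large pool at 182 CPM (replicate 2) the first difference was 0.53 and no longer met both criteria. The second did not meet them without PND 13 replicate 3 or PND 40 replicate 1 (0.49 at the lowest).

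Oosp3 was at 192, 224 and 188 CPM at PND 13, 201, 174 and 139 CPM in PND 16 small, 271, 299 and 289 CPM in PND 16 large, then 270, 299 and 237 CPM at PND 40. The 6 competent pools were all above the 6 non-competent pools. It met both criteria against PND 16 small in PND 16 large (1.67-fold, log2 fold change 0.74 ± 0.123, adjusted p = 0.00341) and at PND 40 (1.56-fold, 0.65 ± 0.123, adjusted p = 0.00187), the latter not without PND 40 replicate 2 or PND 16 small replicate 3 (0.51 at the lowest). Joined by competence, Oosp3 was 1.49-fold higher (0.57 ± 0.0970, adjusted p = 0.00064). Plac1, the relative of the OOSP genes in the table, had at most 12 counts in a pool and was not tested.

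Set side by side, the 9 tested members give the following counts in each comparison. For PND 16 small vs. PND 13, 0 of 9 passed the test in edgeR or DESeq2. In edgeR, 0.689% of all genes passed upward and 0.237% downward (0.179% met both criteria upward and 0.194% downward). Under DESeq2, 361 of 13943 genes met both criteria in either direction. Of the 9 members, 2 (Oog4 and Oosp2) had an unadjusted p below 0.05, a looser rule for which no share of all genes is given here. For PND 16 large vs. PND 13, 5 passed and all were higher, where 12.6% of all genes passed upward and 13% downward, and 1 met both criteria (Oosp2, where 3.52% of all genes did so upward and 9.8% downward). For PND 40 vs. PND 13, 7 were higher and 1 lower, against 16.3% and 16.7% of all genes, and 3 met both criteria (Obox1, Obox2 and Oosp2, with 6.31% of all genes upward and 12.6% downward). For PND 16 large vs. PND 16 small, 5 passed, all higher, against 4.98% upward and 7.32% downward, and Oosp3 alone met both criteria, against 1.43% upward and 4.76% downward. For PND 40 vs. PND 16 small, 7 were higher and 1 lower, against 14.5% and 15.7%, and Obox2, Oog2 and Oosp3 met both criteria, against 6.89% upward and 10.3% downward. For PND 40 vs. PND 16 large, 0 were higher and 1 was lower, against 3.59% and 3.24%, and 0 met both criteria, against 2.34% upward and 1.32% downward. For competent vs. non-competent oocytes, 8 passed, all higher, against 14.2% upward and 16.5% downward, and Obox2 alone met both criteria, against 3.78% upward and 11.2% downward.

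Pools of the groups compared did not overlap for 1 of 9 members (higher) in PND 16 small vs. PND 13, where 10% of all genes did so upward, for 7 (higher) in PND 16 large vs. PND 13, against 22.6%, and for 6 (higher) in PND 16 large vs. PND 16 small, against 16.2%. For PND 40, 7 were higher and 1 lower against PND 13 (26.3% and 24.5% of all genes), 7 and 1 against PND 16 small (23.4% and 20.5%), and 3 and 1 against PND 16 large (20.8% and 18.5%). The median log2 fold change of the 9 members was -0.14 for PND 16 small vs. PND 13, 0.40 for PND 16 large vs. PND 13, 0.43 for PND 40 vs. PND 13, 0.42 for PND 16 large vs. PND 16 small, 0.45 for PND 40 vs. PND 16 small, -0.03 for PND 40 vs. PND 16 large and 0.48 for competent vs. non-competent oocytes. Over all 13943 genes the medians were between -0.04 and 0.00. The comparisons share cohorts, so they are not independent of each other. Within the groups of 6, 4 members (Obox1, Obox5, Oog3 and Oosp3) had all competent pools above all non-competent ones, and 6.89% of all genes were in that state.

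**Figure D4:**
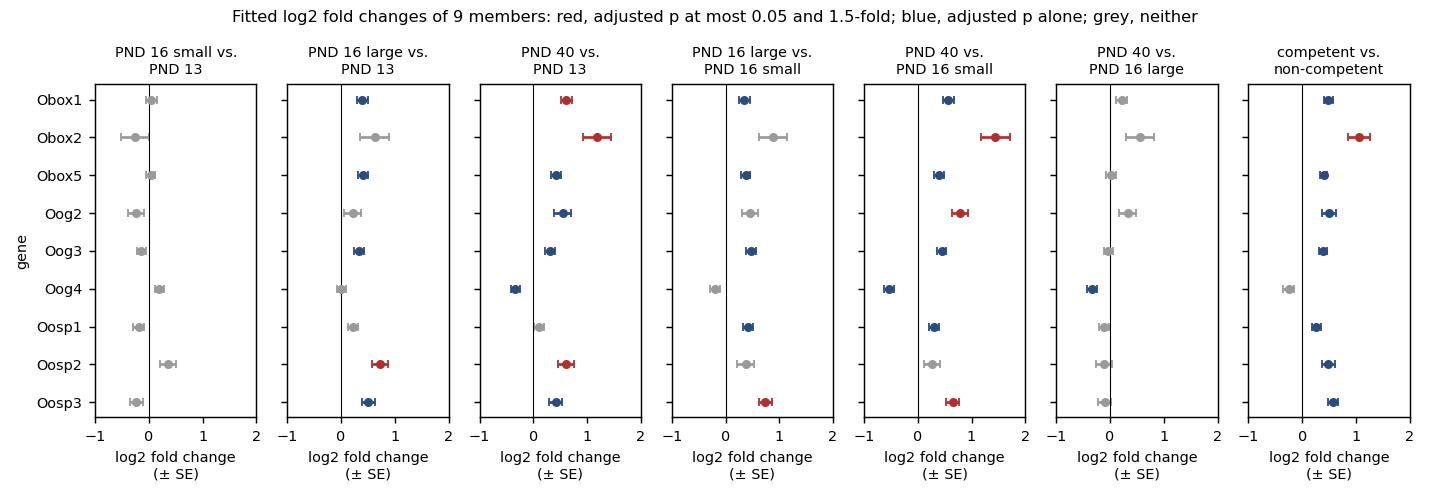
Each panel is a comparison, with the fitted log2 fold change of the first-named group over the second on the x axis and the 9 tested genes on the y axis. Whiskers are SE, and colours mark genes that met both criteria (red), passed the adjusted p alone (blue) or neither (grey). Most points lie right of 0 where a competent cohort is set against a non-competent one, and Oog4 lies left of 0 at PND 40.

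Some of these results changed when the 3 pools with the highest sum of granulosa markers were left out. They were PND 13 replicates 1 and 3 and PND 16 small replicate 2, an alternative chosen after seeing the data. This left 1 PND 13 pool, whose spread is assumed to be that of the other cohorts. That pool, replicate 2, had the highest Obox1, Obox2 and Oosp2 levels of its cohort (272, 245 and 98.8 CPM). Obox1, Obox2 and Oosp2 then no longer met both criteria at PND 40 vs. PND 13, with log2 fold changes of 0.39, 0.77 and 0.45, nor did Oosp2 in PND 16 large vs. PND 13 (0.57), and 1 member passed the test there. Of all genes, 13.9% passed there, and calls by both criteria over all genes went from 2637 to 1506. For PND 16 large vs. PND 13, 1 member passed, against 9.93% of all genes, and calls over all genes went from 1858 to 1064. For PND 40 vs. PND 16 small, 6 members passed upward and Oog4 downward, against 28.4% of all genes in either direction. For competent vs. non-competent oocytes 6 passed, all higher, against 18.2%, with a median log2 fold change of 0.44. The part of granulosa RNA in these results was not tested.

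Compared per kilobase of annotated exon, the members kept a similar order from cohort to cohort. At PND 13, Oosp1 stood highest at 566 ± 39.9 CPM per kb (SD, n = 3), followed by Oog3 (418 ± 29.3), Oog4 (321 ± 27.0), Oosp3 (245 ± 23.5) and Obox5 (218 ± 17.9). Then came Oosp2 (130 ± 14.8), Obox1 (122 ± 18.9) and Obox2 (112 ± 32.4), and last Oog2 at 53.6 ± 4.08 CPM per kb. In that cohort the pools of Oosp3 and Obox5 overlapped, as did those of Oosp2, Obox1 and Obox2 with their neighbours. At PND 40 the order was Oosp1 (613 ± 56.2), Oog3 (517 ± 52.2), Oosp3 (326 ± 37.8), Obox5 (293 ± 30.0), Oog4 (255 ± 16.1), Obox2 (254 ± 17.6), Oosp2 (200 ± 31.0), Obox1 (187 ± 13.0) and Oog2 (78.1 ± 9.61), with 5 of 8 neighbouring pairs overlapping. Oog4 thus went from the third place to the fifth and Obox2 from the eighth to the sixth. Oosp1, Oog3 and Oog2 held the first, second and last places in all 4 cohorts, although pools of neighbours overlapped at PND 40 (Oosp1 and Oog3) and in PND 16 small (Oog3 and Oog4, Obox2 and Oog2). With the length of the longest transcript in place of all exons these 3 kept their places, while at PND 40 Obox2 came before Oog4, Obox5 before Oosp3 and Obox1 before Oosp2.

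Genes of a family can also be compared within a pool, where the size of the library cancels. The 6 ratios of counts were chosen after seeing the data and were compared by competence, 6 pools against 6, as a description with no test, since the genes had already been seen to move. The ratio of Obox2 to Obox1 was 0.699, 0.901 and 0.739 at PND 13, 0.397, 0.729 and 0.791 in PND 16 small, 0.785, 0.992 and 0.993 in PND 16 large and 1.06, 1.20 and 1.27 at PND 40. Only at PND 40 did Obox2 have more counts than Obox1 in all pools, and the mean log2 ratio was 0.59 higher in competent pools. This ratio depends on how reads common to Obox1 and Obox2 were counted, and it takes no account of gene length. The ratio of Oog4 to Oog2 was 5.27, 5.19 and 4.003 at PND 13, 4.33, 8.17 and 8.13 in PND 16 small, 3.87, 3.88 and 4.73 in PND 16 large and 2.36, 2.53 and 3.01 at PND 40. It was lowest in the 3 PND 40 pools, and its mean log2 difference was -0.77. Ratios to Oog2 depend in part on how reads common to Oog2 and Gm13084 were counted. The ratio of Oosp3 to Oosp1 was 0.291 to 0.400 in the 6 non-competent pools and 0.426 to 0.483 in the 6 competent pools, with no overlap. Its log2 difference was 0.32. The mean log2 differences of the other ratios were -0.09 for Obox5 to Obox1, -0.12 for Oog3 to Oog2 and 0.22 for Oosp2 to Oosp1. Within these, Oosp2 to Oosp1 was 0.154 to 0.167 in the 3 PND 13 pools and at least 0.191 in the other 9, and Oog3 to Oog2 was 4.64 to 5.20 at PND 40 and 6.13 to 6.61 in PND 16 large.

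**Figure D5:**
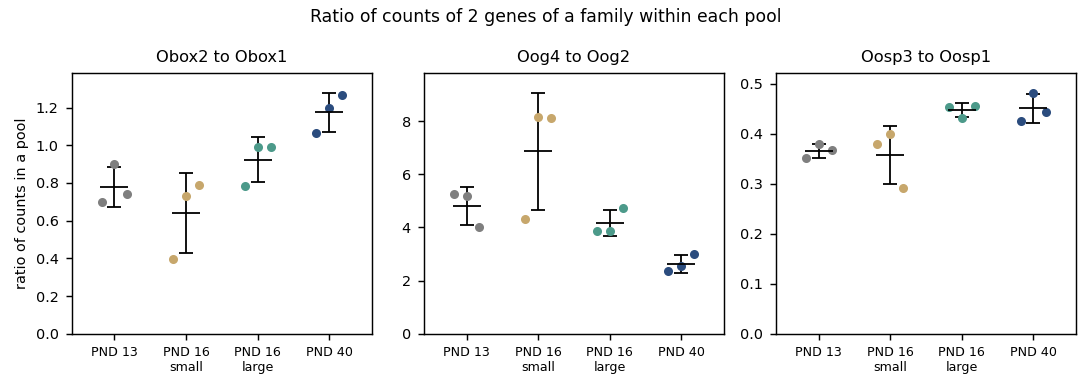
The panels give the ratio of counts of a pair of genes of a family within each pool (y axis, from 0) by cohort (x axis). Points are pools, bars are means and whiskers are SD (n = 3). By the counts as listed, Obox2 exceeds Obox1 at PND 40, with a mean ratio of 1.18, Oog4 to Oog2 falls to 2.63 there, and Oosp3 to Oosp1 is higher in every competent pool than in any non-competent pool.

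For each tested member, the gene with the most similar course over the 12 pools was sought among 11939 tested non-members with a mean of at least 1 CPM, by Pearson's r of log2 CPM. Cohort, depth and pool are common to all points, so r is given as a description. The nearest genes were Ttc41 for Obox1 (r = 0.982), Themis3 for Obox2 (0.968) and Accsl for Obox5 (0.980). For the Oogenesins they were Sec11c, a signal peptidase subunit, for Oog2 (0.953), Gtf2h3, a subunit of the general transcription factor TFIIH, for Oog3 (0.937) and Ltn1, a ubiquitin ligase of ribosome quality control, for Oog4 (0.972). For the OOSP genes they were Lgmn, a lysosomal protease, for Oosp1 (0.917), Cdh4, a cadherin, for Oosp2 (0.915) and Psma6, a proteasome subunit, for Oosp3 (0.981).

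Among 33 other PRAME-family genes in the table, 22 were tested and 6 were at 0 in all pools. Of the 22, 4 were higher and 1 lower by both criteria for PND 40 vs. PND 13, where 6.31% of all genes were higher and 12.6% lower. Against PND 16 small, PND 40 had 2 higher and 2 lower, beside 6.89% and 10.3%. For competent vs. non-competent oocytes, 1 was higher and 3 lower, against 3.78% and 11.2%. For PND 16 large, 1 was higher and 0 lower against PND 13 (3.52% and 9.8% of all genes) and 1 and 0 against PND 16 small (1.43% and 4.76%). The remaining comparisons (the non-competent cohorts with each other, and likewise the competent ones) gave 0 genes of this list by both criteria. The gene called most often was C87414, at 25.6 CPM at PND 13, 33.0 CPM in PND 16 small, 54.2 CPM in PND 16 large, then 65.9 CPM at PND 40, which met both criteria in 5 comparisons and was 1.03 ± 0.155 higher in competent oocytes on the log2 scale (adjusted p = 0.000291). The genes that fell were scarce: in competent vs. non-competent oocytes BC080695 averaged 0.343 vs. 1.24 CPM (adjusted p = 0.0128), Pramel1 0.655 vs. 1.73 CPM (adjusted p = 0.0149) and B020004J07Rik 1.03 vs. 2.87 CPM (adjusted p = 0.0203). Without the 3 pools of highest granulosa marker sum, the log2 fold change of B020004J07Rik at PND 40 vs. PND 13 went from -1.82 to 0.02.

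Of 10 oocyte transcription factors, 0 were higher and 2 lower by both criteria in competent oocytes, against 3.78% and 11.2% of all genes. These were Tbpl2, which replaces the TATA-binding protein in growing oocytes (log2 fold change -0.87 ± 0.166, adjusted p = 0.00139), and the homeobox gene Gsc (-1.27 ± 0.259, adjusted p = 0.00216). Sohlh2 was higher at PND 40 than in each of the other cohorts, at 9.18 vs. 2.88 CPM against PND 16 large (1.67 ± 0.237, adjusted p = 0.00193). Sohlh1 was scarce, with 8 to 42 counts a pool at PND 40 and 0 to 1 in PND 16 large. Among 10 other oocyte-secreted and surface genes, 0 met both criteria in competent vs. non-competent oocytes. At PND 40 vs. PND 13, 2 were lower, against 12.6% of all genes, Zp2 of the zona pellucida (-0.84 ± 0.0853, adjusted p = 3.87e-05) and Cd9, a membrane protein of sperm-egg fusion (-0.86 ± 0.268, adjusted p = 0.0318). Of 12 maternal-effect genes, Nlrp5 was lower in competent oocytes (-0.62 ± 0.129, adjusted p = 0.00251), and Nlrp5 and Padi6 were lower at PND 40 vs. PND 13, against 11.2% and 12.6% of all genes lower, while 0 were higher in any comparison.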

How the data were processed

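Oocyte RNA of the 12 pools was sequenced from rRNA-depleted, directional libraries with 50-base reads. The processing notes of the submitters name FastQC, STAR, HTSeq, DESeq2, DESeq and HOMER and the build mm10. How reads matching several genes were counted, the strand setting and the annotation version are not given in the sources used here. The authors deposited a table of raw counts per gene and a table of log2 values, which equal log2(count / size factor + 1).

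The counts were tested with edgeR 4.0.16 in R 4.3.3 by the robust quasi-likelihood test, with TMM factors, filterByExpr at a minimum count of 10 and Benjamini-Hochberg adjustment over 13943 genes. A single model held the 4 cohorts, and a second model compared 6 competent with 6 non-competent pools. Criteria were an adjusted p of at most 0.05 and 1.5-fold. SEs are the log2 fold change over the root of F. The model was tested on simulated data. The alternatives were DESeq2 1.42.0, limma 3.58.1 on the deposited log2 values, other scaling, other filters, other samples and a replicate block. Depth was 17671193 to 27418358 counts, and floors cover counting error only. The sources describe independent pools of oocytes from 3 mice per cohort, and p-values measure the spread between pools. No pair of pools in a cohort agreed within sampling noise.

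Named genes were all 10 members, the non-member most correlated with each, and up to 4 genes of each related list, those that met both criteria in most comparisons. The members and lists were chosen with earlier results of these data known. Ratios, sums and the granulosa alternative were chosen after seeing the data. Sequences came from GENCODE M21 transcripts and RefSeq promoters (GRCm38.p6, 9 of 10 members matched), with Biopython 1.88.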

Additional observations from a re-analysis of the deposited data

How the results depend on the processing

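The 9 calls of single members by both criteria kept their direction in every alternative run. Obox2 in competent vs. non-competent oocytes (0.94 to 1.19 on the log2 scale), Oosp3 in PND 16 large vs. PND 16 small, and Obox2 and Oog2 in PND 40 vs. PND 16 small kept both criteria in all 11 alternatives and with any pool left out. At PND 40 vs. PND 13, Obox1 and Oosp2 lost a criterion with total counts, with the stricter filter and without PND 13 replicate 3. Obox1 also lost one without PND 40 replicate 2 and Oosp2 without PND 40 replicate 1. Oosp3 in PND 40 vs. PND 16 small lost one without PND 40 replicate 2 or PND 16 small replicate 3. The causes were not tested.

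Counts of members by both criteria moved as follows. With adjusted p alone they were 5 in PND 16 large vs. PND 13, 8 in PND 40 vs. PND 13, 5 in PND 16 large vs. PND 16 small, 8 in PND 40 vs. PND 16 small, 1 in PND 40 vs. PND 16 large and 8 in competent vs. non-competent oocytes. In the same order, 3567, 4612, 1715, 4207, 953 and 4283 of all 13943 genes passed. With 1 pool left out, 4 to 7 members passed upward and 0 to 1 downward in PND 40 vs. PND 13. In PND 16 large vs. PND 16 small, 3 to 6 then passed, all upward. In competent vs. non-competent oocytes, 7 to 8 passed upward and 0 to 1 downward. By both criteria, PND 40 vs. PND 13 gave 1 member with total counts (2630 of 13943 genes) and 1 with the stricter filter (2413 of 11280 genes). PND 16 large vs. PND 16 small gave 2 under DESeq2, the stricter filter, limma at both pseudocounts (1 and 0.1) and without the 3 granulosa-rich pools. Without those pools, 0 members were called against PND 13 in PND 16 large and 0 at PND 40. Leaving out 1 pool gave 0 to 2 members in PND 16 large vs. PND 13 (1154 to 1934 over all genes) and 1 to 2 in PND 16 large vs. PND 16 small (333 to 1144). It gave 1 to 2 in competent vs. non-competent oocytes (1703 to 2231). Over all genes, PND 16 large vs. PND 16 small had 863 calls in the main fit, 1173 under DESeq2, 923 with the stricter filter, then 900 and 879 with limma (pseudocounts 1 and 0.1).

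With the replicate block, members called numbered 2 in PND 16 large vs. PND 13 and 2 in PND 16 large vs. PND 16 small, and other counts of members did not change. Over all genes, calls in these comparisons numbered 1637 and 732 with the block, against 1858 and 863 in the main fit. Deviations of same-numbered pools correlated at -0.442 to 0.0753, so the numbers were not taken to pair the pools.

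Small differences changed sign. For PND 16 small vs. PND 13, Obox1 (0.05) was -0.049 with total counts, -0.23 without the 3 granulosa-rich pools and -0.047 to 0.15 with 1 pool left out (-0.020 without PND 16 small replicate 2). Obox5 (0.03) was -0.065, -0.076 and -0.036 to 0.069 in the same order. For PND 16 large vs. PND 13, Oog4 (0.01) was -0.088 with total counts, -0.032 with the stricter filter, -0.019 without the 3 pools and -0.066 to 0.061 with 1 left out. For PND 40 vs. PND 16 large, leaving out 1 pool gave -0.034 to 0.10 for Obox5, -0.094 to 0.049 for Oog3 and -0.24 to 0.064 for Oosp2. B020004J07Rik in PND 40 vs. PND 13 became 0.023 without the 3 pools. The ratio of Obox5 to Obox1 ranged from -0.13 to -0.058 with 1 pool left out. Total counts moved the median of all genes to -0.12 and -0.13 in PND 16 small and PND 16 large vs. PND 13.

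Over all genes, PND 16 small vs. PND 13 gave 52 calls, with 361 under DESeq2, 25 with total counts, 10 with the block, 2 with these cohorts alone in the fit, 17 without the 3 pools and 4 to 817 with 1 pool left out (4 without PND 13 replicate 3, 5 without PND 16 small replicate 3, 89 without PND 13 replicate 1, 817 without PND 16 small replicate 1). PND 40 vs. PND 16 large gave 510, with 782 under DESeq2 1081 with these cohorts alone and 246 to 305 with any 1 of its 6 pools left out. PND 16 large vs. PND 16 small gave 863, with 475 with these cohorts alone, 333 without PND 16 large replicate 1 and 466 without its replicate 2. PND 16 large vs. PND 13 gave 1858, with 1189 without PND 13 replicate 3, 1154 without PND 16 large replicate 1 and 1064 without the 3 pools. PND 40 vs. PND 13 gave 2637, with 1506 without the 3 pools. With adjusted p alone, calls over all genes numbered 129 to 4612 by comparison.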
